A study of Homo sapiens with 2 samples.

Results

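Some entries of the microRNA (miRNA) catalogue carry the same bases as other short RNAs of the cell. The 13 described here are hsa-miR-1260b, hsa-miR-1260a, hsa-miR-4454, hsa-miR-3607-3p, hsa-miR-3607-5p, hsa-miR-3653-3p, hsa-miR-1246, hsa-miR-664a-3p, hsa-miR-664a-5p, hsa-miR-664b-3p, hsa-miR-664b-5p, hsa-miR-1291 and hsa-miR-1248, written below without the species prefix hsa-. They were chosen by name, as entries known to overlap transfer RNA (tRNA), small nuclear RNA (snRNA) or small nucleolar RNA (snoRNA), and they are 13 of the 1497 mature names listed, from 10 of 1095 hairpins. Small RNA sequencing was done on A375 cells, an established human melanoma line, seeded at 1000000 cells in 10 cm dishes, left for 24 h and then kept for 48 h in DMSO, a solvent used as vehicle. There is 1 group of 2 libraries, described in the labels as independent replicates with no word on separate cultures, so every comparison between samples below is between these libraries and none is between conditions. The spread between them may be technical.

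A miRNA is usually cut from a hairpin by the nucleases Drosha and Dicer and loaded into an Argonaute protein, where bases 2 to 8, the seed, pair with messenger RNAs. tRNAs carry amino acids to the ribosome and receive their last bases, CCA, from an enzyme after transcription. Box H/ACA snoRNAs fold into 2 hairpins, end with the letters ACA 3 bases before their 3′ end and guide the conversion of uridine to pseudouridine. Box C/D snoRNAs guide methylation of ribose, and U2 snRNA is the part of the spliceosome that pairs with the branch point of introns. Fragments of all of these are found in small RNA libraries, and a read of such a fragment carries no mark that tells it from a miRNA with the same bases.

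The mature sequences below, from RefSeq (GRCh38.p14), show what the entries of each kind look like, 5′ to 3′ and with the seed in capitals. The first 3 belong to the tRNA entries, the fourth to the U2 entry and the other six to the snoRNA entries. RefSeq sequences were matched for 10 of the 13 names, and miR-3607-3p, miR-3607-5p and miR-3653-3p are named only.
miR-1260b: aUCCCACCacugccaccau
miR-1260a: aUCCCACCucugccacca
miR-4454: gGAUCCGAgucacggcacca
miR-1246: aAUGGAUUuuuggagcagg
miR-664a-3p: uAUUCAUUuauccccagccuaca
miR-664a-5p: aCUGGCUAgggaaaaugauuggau
miR-664b-3p: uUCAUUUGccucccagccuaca
miR-664b-5p: uGGGCUAAgggagaugauugggua
miR-1291: uGGCCCUGacugaagaccagcagu
miR-1248: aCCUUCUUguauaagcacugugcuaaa

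The 3 tRNA entries shared a 3′ end. Each finished with the letters CACCA, miR-1260b with 1 further base, and of the 1317 names in the table with a RefSeq sequence 6 (0.456%) ended in this way. The other three were miR-7977, miR-876-5p and miR-7114-3p, with 8, 3 and 1 reads in replicate 1 and 20, 9 and 1 reads in replicate 2. No nuclear tRNA sequence was used here, so a match of these entries to a tRNA was not tested. Their hairpins overlapped none of the tRNA genes that RefSeq lists in GRCh38.p14, and none of their sequences was inside a mitochondrial tRNA, of which 22 were searched. The mitochondrial tRNAs were searched as annotated, without the CCA added after transcription. A sequence that takes in those added bases could not be found whole there, so this search cannot decide on such an origin. The tRNA label of these 3 names therefore comes from the rule, beside the shared ending.

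Within this set, miR-1260a and miR-1260b had the same seed, UCCCACC, and differed over the length of the shorter one by the substitution U9A, with positions counted from 1 at the 5′ end, the base of miR-1260a first and that of miR-1260b second. They are also short, at 18 bases for miR-1260a and 19 bases for miR-1260b, against a median of 22 bases over the names with a sequence. Names of 19 bases or fewer made up 3.42% of the 1317 names with a sequence. Among the names with a sequence, none outside the set had their seed, nor that of miR-4454, miR-1246, miR-664a-3p, miR-664b-5p or miR-1248. The seed of miR-664a-5p was found in miR-4794, that of miR-664b-3p in miR-579-3p and that of miR-1291 in miR-6775-3p, all below 1 RPM (reads per 1000000 read assignments) in both libraries.

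Of the 10 sequences, 7 lay whole and without a mismatch inside a structural RNA annotated in GENCODE 29 (GRCh38). The search covered 5722 transcripts, among them 955 snoRNA and 1900 snRNA transcripts. Among all 1317 names with a sequence, 13 were found in this way, so the set held 7 of them and 6 were outside it.

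The miR-664 entries lie toward the 3′ end of their snoRNAs. The stretches below are complete snoRNAs from GENCODE 29, written as DNA, with the 5p entry and then the 3p entry in capitals.
SNORA36B: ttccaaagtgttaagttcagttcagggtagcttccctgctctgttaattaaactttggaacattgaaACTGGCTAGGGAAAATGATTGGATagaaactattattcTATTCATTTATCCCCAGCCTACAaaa
SNORA36A: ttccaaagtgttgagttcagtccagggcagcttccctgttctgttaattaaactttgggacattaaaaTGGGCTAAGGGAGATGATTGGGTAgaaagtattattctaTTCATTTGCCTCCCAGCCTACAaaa
MiR-664a-5p and miR-664a-3p correspond to bases 68 to 91 and 106 to 128 of SNORA36B, which has 131 bases. MiR-664b-5p and miR-664b-3p correspond to bases 69 to 92 and 108 to 129 of SNORA36A, which has 132 bases. Both 3p entries thus end with the letters ACA, and 3 bases follow them in the snoRNA. MiR-664b-3p was also found at bases 108 to 129 of SNORA36C, and reads of these copies cannot be told apart. The 3p entries of the 2 loci share the 11 bases CCCAGCCUACA at their 3′ ends but have different seeds.

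MiR-1248 and miR-1291 lie at the other end of their snoRNAs, at bases 1 to 27 of the 178 in SNORA81 and at bases 2 to 25 of the 137 in SNORA2C. MiR-1246 lies in the interior of U2, at bases 94 to 112 of the 191 in RNU2-1. The first 40 bases of both snoRNAs and bases 81 to 130 of RNU2-1 are given with the entry in capitals.
SNORA81: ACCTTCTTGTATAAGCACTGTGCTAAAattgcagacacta
SNORA2C: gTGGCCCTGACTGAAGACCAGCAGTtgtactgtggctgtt
RNU2-1: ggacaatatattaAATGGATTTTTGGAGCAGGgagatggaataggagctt
The 19 bases of miR-1246 were present in 19 annotated U2 transcripts, copies and pseudogenes included, although its own hairpin on chromosome 2 overlaps no annotated snRNA.

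**Figure D1:**
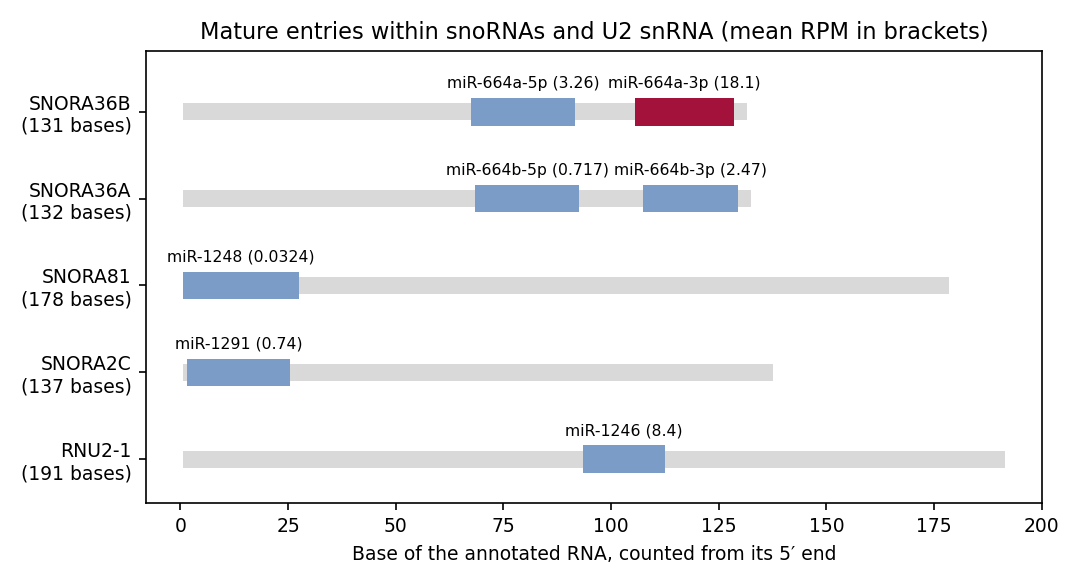
Position of 7 mature entries (coloured blocks) within 5 annotated RNAs (grey bars), counted in bases from the 5′ end of each RNA, with the mean RPM of the 2 libraries in brackets. Red marks a mean of 10 RPM or more, reached here by miR-664a-3p (18.1), which ends 3 bases before the end of SNORA36B, and blue marks lower means.

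In GENCODE 29, the 5 hairpins placed over a snoRNA gene on the same strand were mir-664a, mir-664b, mir-1291, mir-1248 and mir-3653. Among 1094 hairpins of the table matched to the annotation there were 8 such overlaps with structural RNA genes, and the other three were mir-3651, mir-6516 and mir-7641-2. MIR664A lies on chromosome 1 from 220200538 to 220200619, minus strand, in an intron of RAB3GAP2, and shares 74 bases with SNORA36B. MIR664B lies on chromosome X from 154768596 to 154768656 in DKC1, the gene of dyskerin, the enzyme that works with box H/ACA snoRNAs, and all its 61 bases are within SNORA36A. MIR1248 is on chromosome 3 from 186786672 to 186786777 in EIF4A2, a gene of an RNA helicase of translation initiation, and shares 103 bases with SNORA81. MIR664B and MIR1248 each overlap an exon of at least 1 transcript of the host gene. MIR1291 is on chromosome 12 from 48654444 to 48654530, minus strand, in an intron of KANSL2, sharing 75 bases with SNORA2C.

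The 2 remaining snoRNA entries belong to box C/D. MIR3653 lies on chromosome 22 from 29333158 to 29333267, minus strand, in an intron of AP1B1, and its 110 bases hold the whole of SNORD125 (96 bases). RefSeq lists mir-3607 as another name of SNORD138, a snoRNA of 63 bases on chromosome 5 from 86620506 to 86620568 (GRCh38.p14), within COX7C, which encodes a subunit of cytochrome c oxidase. MIR1260A, on chromosome 14 from 77266218 to 77266290, overlaps the neuroglobin gene NGB on the opposite strand. MIR1260B, on chromosome 11 from 96341438 to 96341526, overlaps MAML2, also on the opposite strand. MIR4454, on chromosome 4 from 163093574 to 163093628, and MIR1246, on chromosome 2 from 176600980 to 176601052, overlap no other annotated gene.

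The libraries held 10816826 read assignments in replicate 1 and 15428446 in replicate 2, recovered from the RPM. 1 read was worth 0.0924 RPM in replicate 1 and 0.0648 RPM in replicate 2, and a count of 0 allows up to 0.277 and 0.194 RPM (3 reads). All intervals are exact 95% binomial intervals that cover counting error only and take reads as independent. PCR reads are not independent molecules, so the intervals may be too narrow. Of the miRNAs listed for melanocytes or melanoma, miR-204-5p stood at 2766 and 2498 RPM in replicates 1 and 2, while miR-211-5p had 3 and 2 reads. The others listed were miR-21-5p (59733 and 47975 RPM), miR-222-3p (9376 and 9111 RPM) and miR-221-3p (8923 and 7992 RPM). With them were miR-182-5p (7037 and 7042 RPM) and miR-146a-5p (1551 and 2527 RPM). RPM are relative to all other assigned reads, and in RNA from a whole culture fewer cells holding an RNA and less of it per cell cannot be told apart.

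Among the tRNA entries, miR-1260b was the highest of the 13. It had 155 RPM in replicate 1 (1681 reads, interval 148 to 163) and 202 RPM in replicate 2 (3122 reads, interval 195 to 210). Its mean of 179 ± 33.2 RPM (SD, n = 2) placed it at rank 134 of all mature names. MiR-1260a, which differs from it at a single position and in length, had 4.62 RPM in replicate 1 and 4.21 RPM in replicate 2, or 50 and 65 reads. MiR-1260b thus exceeded miR-1260a 33.6-fold in replicate 1 and 48.0-fold in replicate 2. How many mismatches the authors' alignment allowed is not given in the sources used here, so how reads were split between these near-identical entries is not known and the level of miR-1260a is uncertain.

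MiR-4454 differed widely between the libraries. It had 39.4 RPM in replicate 1 (426 reads, interval 35.7 to 43.3) and 95.5 RPM in replicate 2 (1474 reads, interval 90.7 to 101). It stood at rank 230 in replicate 1 and at rank 170 in replicate 2. The intervals were far apart, so the gap between the libraries exceeded counting error with reads taken as independent.

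The only snRNA entry, miR-1246, stood at the edge of the level used here for expression, 10 RPM in both libraries. It had 9.98 RPM in replicate 1 (108 reads, interval 8.19 to 12.1) and 6.81 RPM in replicate 2 (105 reads, interval 5.57 to 8.24). These intervals overlap slightly, and the name falls short of that level in both libraries.

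The box C/D entries were far apart in level. MiR-3607-3p, whose hairpin RefSeq lists as SNORD138, had 142 RPM in replicate 1 (1538 reads, interval 135 to 149). In replicate 2 it had 41.4 RPM (639 reads, interval 38.3 to 44.8). It was close behind miR-1260b in replicate 1 and below miR-1260b and miR-4454 in replicate 2. MiR-3653-3p, whose hairpin holds SNORD125, had 1.76 RPM in replicate 1 (19 reads, interval 1.06 to 2.74). In replicate 2 it had 0.583 RPM (9 reads, interval 0.267 to 1.11). Neither mature sequence was placed within its snoRNA. MiR-3607-3p was 80.9 times as abundant as miR-3653-3p in replicate 1 and 71.0 times in replicate 2. Both had the higher RPM in replicate 1, but the intervals of miR-3653-3p overlapped, so the size of its difference was not resolved.

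The arms of mir-3607 were very unequal. The 5p arm had 4 reads (0.370 RPM) in replicate 1 and none in replicate 2, where the upper limit of 3 reads puts the 3p arm at least 213-fold higher. In replicate 1 the ratio was 385-fold, on 4 reads of the 5p arm.

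The box H/ACA entries were led by miR-664a-3p, with 15.3 RPM in replicate 1 (165 reads, interval 13.0 to 17.8) and 20.9 RPM in replicate 2 (322 reads, interval 18.7 to 23.3). Its partner miR-664a-5p had 3.14 RPM in replicate 1 (34 reads) and 3.37 RPM in replicate 2 (52 reads). The 3p arm was 4.85-fold higher in replicate 1 and 6.19-fold higher in replicate 2. The paralogous locus gave less of both arms.

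MiR-664b-3p had 2.40 RPM in replicate 1 (26 reads) and 2.53 RPM in replicate 2 (39 reads), so that miR-664a-3p exceeded it 6.35-fold and 8.26-fold. MiR-664b-5p had 1.11 RPM in replicate 1 (12 reads) and 0.324 RPM in replicate 2 (5 reads). On the scale log2(RPM + 1) the 3p arm was above the 5p arm by 2.15 ± 0.25 for mir-664a and by 1.05 ± 0.51 for mir-664b (SD, n = 2). At both loci the entry that ends in the letters ACA had the higher RPM in both libraries. For mir-664b in replicate 1 the counting intervals of the arms overlapped (1.57 to 3.52 RPM for the 3p arm, 0.573 to 1.94 RPM for the 5p arm), and the 3p sequence also occurs in SNORA36C, so its arms were not compared within a single snoRNA.

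The entries at the 5′ ends of snoRNAs were near the limit of counting. MiR-1291 had 0.832 RPM in replicate 1 (9 reads) and 0.648 RPM in replicate 2 (10 reads). MiR-1248 had no read in replicate 1 and 1 read in replicate 2. Its 27 bases make it the longest of the 1317 names with a sequence.

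**Figure D2:**
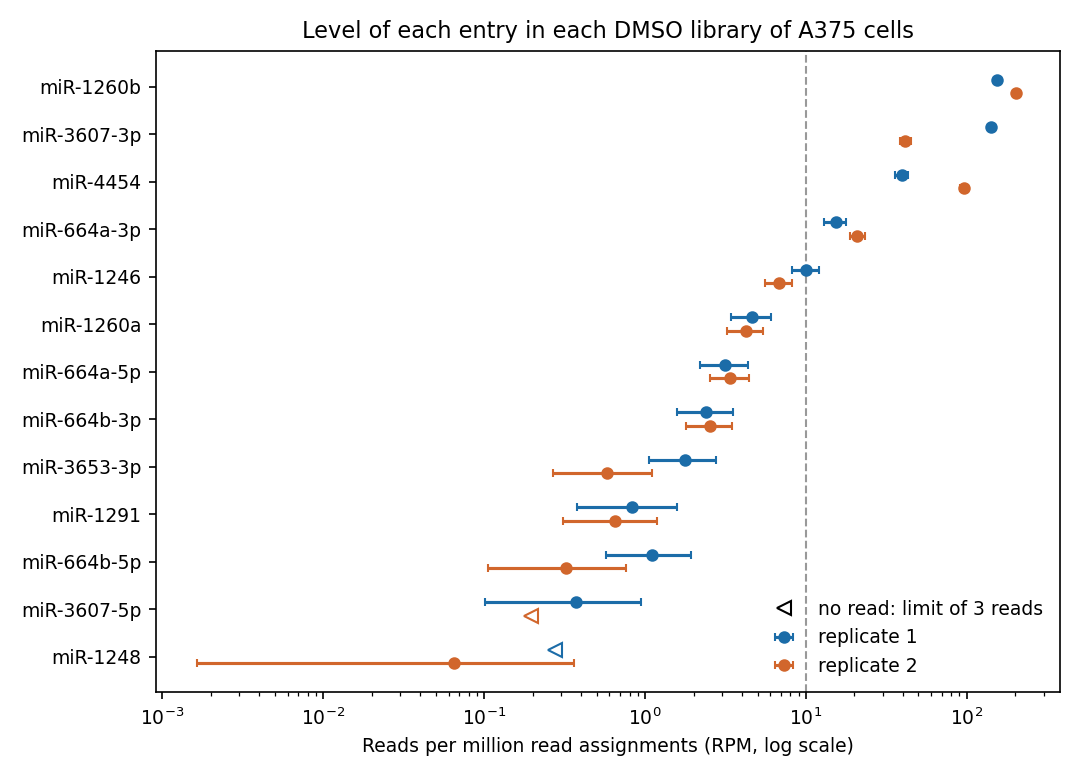
Level of each of the 13 entries in replicate 1 and replicate 2, in RPM on a log scale, with exact 95% intervals for counting error, open triangles at the limit of 3 reads where no read was assigned, and a dashed line at 10 RPM. The 4 uppermost entries lie right of the line in both libraries, and miR-3607-3p and miR-4454 exchange places between them.

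By mean, the order was miR-1260b, miR-3607-3p (91.8 ± 71.3 RPM), miR-4454 (67.5 ± 39.7 RPM), miR-664a-3p (18.1 ± 3.97 RPM) and miR-1246 (8.40 ± 2.25 RPM). Within 1 SD of the mean, miR-3607-3p overlapped miR-1260b, miR-4454 and miR-664a-3p, so its place in the order was not resolved. Without it, miR-1260b, miR-4454, miR-664a-3p and miR-1246 were clear of one another. MiR-1260a (4.42 ± 0.290 RPM), miR-664a-5p (3.26 ± 0.161 RPM) and miR-664b-3p (2.47 ± 0.0878 RPM) followed with ranges that did not overlap, although the counting intervals of neighbours did. MiR-3653-3p, miR-1291 and miR-664b-5p, at 1.17 ± 0.830, 0.740 ± 0.130 and 0.717 ± 0.555 RPM, could not be ordered, and miR-3607-5p and miR-1248 had 4 reads and 1 read in all. At 10 RPM or more in both libraries stood 4 of the 13, against 335 of all 1497 names. At 1 RPM it was 8 of the 13, against 593 of all names.

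The summed level of the 13 was 376 RPM in replicate 1 and 379 RPM in replicate 2. This was 0.0485% in replicate 1 and 0.0484% in replicate 2 of the total RPM left with 1 value kept per mature name. That reduced total was 77.6% of the deposited RPM in replicate 1 and 78.3% in replicate 2. The classes within this sum differed in opposite directions. The tRNA entries summed to 199 RPM (53.0% of the 13) in replicate 1 and 302 RPM (79.8%) in replicate 2. The box C/D entries summed to 144 RPM (38.3%) in replicate 1 and 42.0 RPM (11.1%) in replicate 2.

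The other classes stayed small. Box H/ACA entries held 22.7 RPM in replicate 1 and 27.8 RPM in replicate 2, and the U2 entry held 2.65% and 1.80% of the sum. Nearly all of the difference in the 2 large classes lay in 3 names, miR-1260b, miR-4454 and miR-3607-3p. With miR-1260b left out the sum was 221 RPM in replicate 1 and 176 RPM in replicate 2, so the near equality of the total is a property of the whole set of 13.

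**Figure D3:**
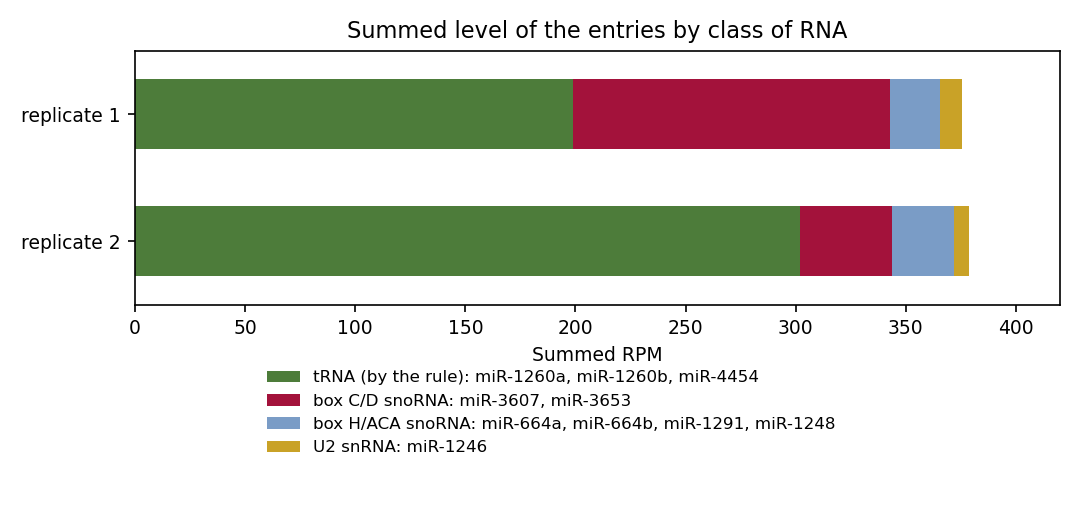
Summed RPM of the 13 entries in replicate 1 and replicate 2, stacked by class of RNA. The tRNA class comes from the rule, and a match of its entries to a nuclear tRNA was not tested. The bars are nearly equal in length (376 and 379 RPM), while the tRNA part is 199 and 302 RPM and the box C/D part 144 and 42.0 RPM.

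The reads of each name were then compared between the libraries with a two-sided Fisher's exact test. It speaks of these libraries and not of A375 cells in general, and it too takes reads as independent. A name was called when its Benjamini-Hochberg adjusted p was under 0.05 and its fold above 2. Of all 869 names with at least 10 reads, 40 (4.60%) were called, 29 (3.34%) higher in replicate 1 and 11 (1.27%) higher in replicate 2. Scaling by the median ratio instead gave 23 higher in replicate 1 and 15 higher in replicate 2. Of the 11 entries tested here, 3 were called, 2 higher in replicate 1 and 1 higher in replicate 2. Adjusted p alone was under 0.05 for 6 of the 11 and for 34.5% of all names tested.

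MiR-3607-3p was 3.43-fold higher in replicate 1 (adjusted p = 6.5e-168, Fisher's exact test), and miR-3653-3p was 2.93-fold higher there on 19 against 9 reads (adjusted p = 0.020, Fisher's exact test). MiR-4454 was 2.42-fold higher in replicate 2 (adjusted p = 1.2e-65, Fisher's exact test). MiR-1260b and miR-664a-3p were 1.30-fold and 1.37-fold higher in replicate 2, and miR-1246 1.47-fold higher in replicate 1, each under the fold limit, with adjusted p of 9.8e-18, 0.0042 and 0.018 in Fisher's exact test. MiR-664b-5p was 3.24-fold higher in replicate 1 on 12 against 5 reads, a larger fold than that of miR-4454 or miR-3653-3p, and was not called (adjusted p = 0.064, Fisher's exact test). For miR-1260a, miR-664a-5p, miR-664b-3p and miR-1291 the adjusted p in Fisher's exact test was between 0.81 and 0.98, and their folds of replicate 1 over replicate 2 were between 0.937 and 1.29.

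Against names of like level, the pair stood at the edge. On the log2(RPM + 1) scale, replicate 1 over replicate 2, miR-3607-3p was at 1.76 and miR-4454 at -1.26, the largest and second largest absolute differences of the 346 names with a mean of 10 RPM or more. Their median absolute difference was 0.25, and 6 of them, these 2 included, differed by over 2-fold. Of 84 other names within 2-fold of the mean of miR-3607-3p, none had a larger absolute difference, and of 94 around miR-4454 only miR-3607-3p did. MiR-1260b, at -0.38, was exceeded by 17 of 73 names of like level, and miR-664a-3p, at -0.43, by 29 of 120.

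**Figure D4:**
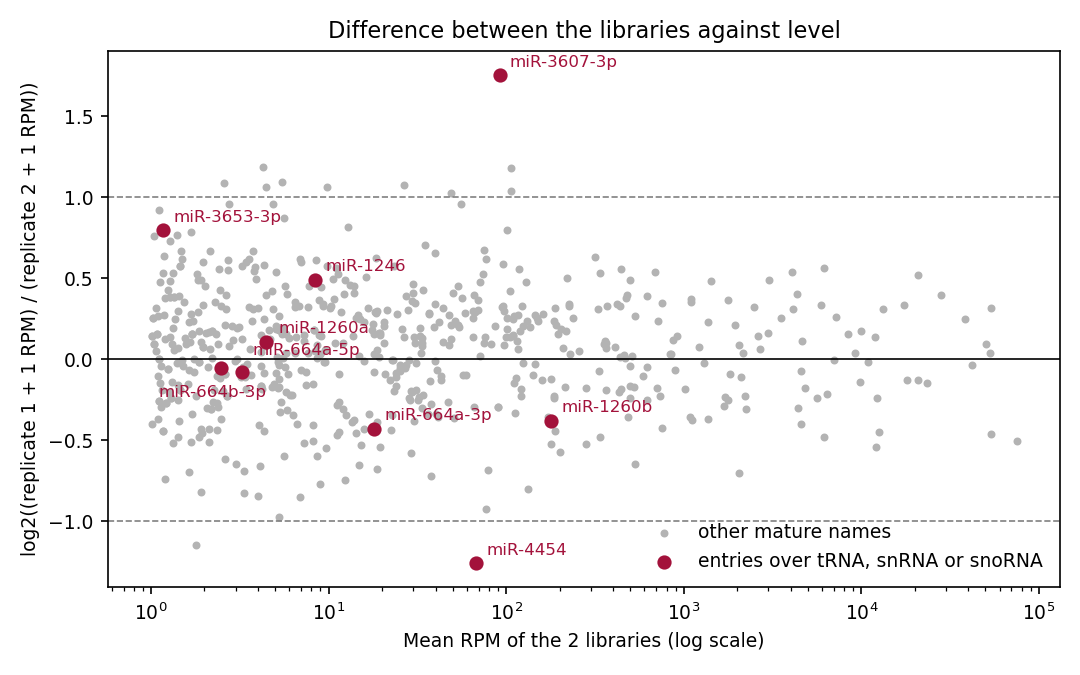
Difference between the libraries, as log2 of replicate 1 over replicate 2 with 1 RPM added to each, against the mean RPM on a log scale, for all mature names with a mean of 1 RPM or more. Grey points are other names, red points the entries chosen by name as overlapping tRNA, snRNA or snoRNA, and dashed lines mark -1 and 1. MiR-3607-3p at 1.76 and miR-4454 at -1.26 lie at the upper and lower edges.

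Likeness to other miRNAs was measured as the Euclidean distance in log2(RPM + 1) over the 2 libraries, a number of samples too small to say more than that the values are near. Nearest to miR-1260b were miR-152-3p (0.080), miR-615-3p (0.102) and miR-361-5p (0.107). Nearest to miR-664a-3p were miR-497-5p (0.069), miR-4746-5p (0.136) and miR-141-3p (0.150). MiR-3607-3p and miR-4454 had no such close neighbours. The nearest to miR-3607-3p were miR-193a-3p (0.643), miR-455-3p (0.731) and miR-23a-5p (0.770), and the nearest to miR-4454 were miR-514a-3p (0.421), miR-301b-3p (0.602) and miR-450b-5p (0.692).

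A list of 13 other names, picked by hand as entries over ribosomal, mitochondrial, tRNA or snoRNA sequence, was set beside the 13 described here. A whole match to an annotated structural RNA was found for miR-3651, miR-4485-3p, miR-1973 and both arms of miR-6516. None was found for the other rows of the list, miR-4521 and miR-3687 among them. Nuclear tRNAs and names without a RefSeq sequence were not searched. Of its names 12 were in the table, as 14 mature rows, and only miR-4521 (20.7 RPM in replicate 1 and 16.7 RPM in replicate 2) reached 10 RPM in both libraries. Of the 10 rows tested, 1 was called, miR-3651, whose sequence lies in SNORA84, a box H/ACA snoRNA. It had 84 reads in replicate 1 and 48 in replicate 2 (7.77 and 3.11 RPM). MiR-3687 (6.38 and 11.6 RPM) and miR-4485-3p (6.66 and 10.6 RPM), whose sequence was found in the mitochondrial ribosomal RNA MT-RNR2, were higher in replicate 2, within the fold limit. In sum these rows held 0.00756% of the reduced total RPM in replicate 1 and 0.00724% in replicate 2, less than the 13.

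A list of 8 names that bypass Drosha, another route to a miRNA outside the usual one, was also picked by hand. Of these 7 were in the table, as 10 mature rows, and they stood far higher in sum. They held 0.228% of the reduced total RPM in replicate 1 and 0.191% in replicate 2. Most of this was miR-320a (1232 RPM in replicate 1, 953 RPM in replicate 2). MiR-484 (402 and 463 RPM) and miR-877-5p (129 and 73.6 RPM) also reached 10 RPM in both libraries. Of 6 rows of the list tested, 1 was called, miR-1226-5p, on 10 reads in replicate 1 and 3 in replicate 2.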

How the data were processed

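Small RNA libraries of 2 replicates of A375 cells in DMSO were used. Per the labels' protocols, a miRNeasy column kit gave total RNA, and library preparation was Illumina's standard one. CASAVA 1.8 and cutadapt 1.2.1 are named in the submitters' processing notes. Not given in the sources used here are the aligner, miRNA release, genome build, mismatches allowed and how reads matching several places were counted. These settings decide how reads of structural RNA are assigned to the entries.

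The authors deposited RPM, reads per 1000000 read assignments, with decimal commas, 1 value per hairpin and mature name. Within each column all values (100%) came to whole numbers, within 0.01 reads, when divided by the lowest one above 0, so reads were recovered. Columns were matched by the sample descriptions. Copies of a mature name were reduced to the highest, and each of the 13 names had 1 row. Logarithms used a pseudocount of 1 RPM, which understates differences of low names. Fisher's exact test (scipy 1.17.1, Python 3.11.15), two-sided, was run on the whole table for names with at least 10 reads. For folds 0.5 reads were added, and p was adjusted by Benjamini-Hochberg. The code was tried on simulated Poisson counts with set folds in names at 10 RPM or more. That simulation held no spread between libraries beyond counting, so it cannot judge the calls against such spread. Sequences were read from RefSeq (GRCh38.p14), and GENCODE 29 (GRCh38) was searched for exact matches on the transcript strand. All members, the 3 nearest names of those at 10 RPM or more and the listed names at that level are named. MiR-3651, miR-3687, miR-4485-3p, miR-1226-5p and the names ending in CACCA were chosen after their values were seen. Members and lists were chosen with earlier results of these data known. Alternatives are given in the closing section.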

Additional observations from a re-analysis of the deposited data

How the results depend on the processing

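No paired analysis was possible because both libraries belong to 1 group. With copies summed, the share of the 13 entries was 0.0378%, the same with the deposited total as denominator, and without miR-100-5p, the most abundant miRNA, it was 0.0536%. Leaving out 1 replicate gave 0.0484% to 0.0485%. At minima of 1 and 100 RPM, 8 and 1 of the 13 were counted in place of 4. Among all 1497 names, 593 and 161 were counted in place of 335. Calls among all names numbered 81 of 869 tested with a fold limit of 1.5 and 16 of 869 with a limit of 3. With at least 100 reads they numbered 14 of 451, in place of 40 of 869. Of the 3 calls among the 13 entries, 1 was left at a limit of 3, miR-3607-3p, since miR-4454 (2.42-fold) and miR-3653-3p (2.93-fold) fall below it. At 100 reads 2 were left, since miR-3653-3p has too few, as have miR-664a-5p, miR-664b-3p, miR-1291 and miR-664b-5p. Under summed copies, median-ratio scaling, removal of miR-100-5p, a limit of 1.5 and no read minimum, 3 were called. In that order, calls among all names were 40 of 869, 38 of 869, 39 of 868, 81 of 869 and 34 of 1497. Scaling by the median ratio removed a shift of 0.10 log2 toward replicate 1. With it the adjusted p of miR-1246 in Fisher's exact test was 0.076 in place of 0.018, so its difference depended on the scaling. Median-ratio scaling and removal of miR-100-5p, the alternatives that could turn the direction of a difference between the libraries, turned none of the 11 tested. The arm ratios moved with the pseudocount, which cannot turn their direction: for mir-3607 the log2 ratio of 6.06 became 8.47 at 0.1 RPM and 3.12 at 10 RPM. With 1 read worth 0.0924 and 0.0648 RPM, levels under about 1 RPM rest on few reads.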

Other observations

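Among the 1317 names with a RefSeq sequence, 6 outside the 13 were found whole inside an annotated structural RNA, and none reached 10 RPM in both libraries. They were miR-4485-3p and miR-1973 in the mitochondrial ribosomal RNA MT-RNR2, miR-3651 in SNORA84, both arms of miR-6516 in SCARNA16, a guide RNA of Cajal bodies, and miR-4284 in the mitochondrial tRNA gene MT-TF. MiR-6516-5p had 1.85 RPM in replicate 1 and 1.56 RPM in replicate 2, and miR-6516-3p had 1.11 and 1.75 RPM, so neither arm of this entry stood clearly above the other. MiR-1973 had 1 and 3 reads and miR-4284 had 2 reads and 1 read. An exact match gives the least number of such names, since sequences that differ from the annotated RNA at 1 base were not counted. Names without a sequence and nuclear tRNAs were not searched.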
